A study of Mus musculus with 7 samples.

Results

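The promoter regions of protein-coding genes were the ATAC-seq regions whose midpoint lay within 1 kb of a transcription start of a protein-coding gene on an autosome, by the GENCODE M21 basic annotation of GRCm38/mm10. The rule used position and no measured value, and 17502 of the 113820 regions in the table (15.4%) met it. ATAC-seq counts the insertions of a transposase, which enters chromatin where DNA is open, so that their density in a region is taken as how open it is. All cells came from C57BL/6 mice infected 8 days earlier with 500 L3 larvae of Nippostrongylus brasiliensis, a nematode that passes through the lung. Each library was made from 50000 CD4+ T cells, sorted as DAPI-, CD3ε+ and CD4+ and as negative for CD11b, CD11c, CD8, B220, NK1.1 and Ter119. LN IL-4+ cells (n = 2) and lung IL-4+ cells (n = 3) were GFP+ cells of IL-4 4get reporter mice, from the mediastinal lymph nodes and the lung. Lung IFNγ+ cells (n = 2) were YFP+ cells of IFN-gamma GREAT reporter mice. Both reporters are read out from the cytokine locus itself, so the promoters of Il4 and Ifng belong to the genes on which the cells were sorted. Reporter-negative cells were not analysed here, and lung cells were not split further, so lung IL-4+ cells are all IL-4-competent CD4+ T cells of that tissue.

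A promoter is the stretch of DNA around a transcription start on which RNA polymerase and the general transcription factors assemble. Most mammalian promoters lie in CpG islands, stretches with many CG dinucleotides that stay unmethylated and open in most cell types, and these serve both housekeeping genes and many developmental regulators. The remaining promoters have few CG dinucleotides, often carry a TATA box, and belong largely to genes used in particular tissues, cytokine and effector genes of lymphocytes among them.

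Both kinds of promoter are shown here by 200 bases that end just before the start, for genes to which the results return. For Gzmb that is the RefSeq start, 74 bases upstream of the GENCODE start by which its region was assigned. CG dinucleotides are in capitals and all else is in lower case, each sequence reads 5′ to 3′ on the strand of its gene, and the bases are those of RefSeq on GRCm38.p6. Ifng, Il13, Il1rl1, Il4 and Gzmb had CpG-poor promoters that differed between populations, Sh3gl3 had a CpG-rich promoter that did, and Gata3 and Klf2 had CpG-rich promoters that did not pass the test.
Ifng, chr10:118440846-118441045, plus strand: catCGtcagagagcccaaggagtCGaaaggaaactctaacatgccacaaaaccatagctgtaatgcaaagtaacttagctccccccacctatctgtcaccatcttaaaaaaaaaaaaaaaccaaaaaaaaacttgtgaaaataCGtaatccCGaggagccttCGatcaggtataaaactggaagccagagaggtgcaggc
Il13, chr11:53634703-53634902, minus strand: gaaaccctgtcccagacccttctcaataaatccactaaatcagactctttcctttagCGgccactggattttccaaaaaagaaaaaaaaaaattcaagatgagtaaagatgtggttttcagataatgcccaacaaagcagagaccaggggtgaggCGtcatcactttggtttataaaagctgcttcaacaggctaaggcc
Il1rl1, chr1:40429370-40429569, plus strand: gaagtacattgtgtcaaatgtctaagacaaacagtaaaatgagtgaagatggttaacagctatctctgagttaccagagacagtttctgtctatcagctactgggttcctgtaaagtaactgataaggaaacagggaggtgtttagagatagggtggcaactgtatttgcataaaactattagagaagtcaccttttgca
Il4, chr11:53618670-53618869, minus strand: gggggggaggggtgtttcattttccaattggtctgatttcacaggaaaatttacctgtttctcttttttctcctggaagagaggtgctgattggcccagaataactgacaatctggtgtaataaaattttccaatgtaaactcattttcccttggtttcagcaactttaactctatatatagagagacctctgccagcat
Gzmb, chr14:56262335-56262534, minus strand: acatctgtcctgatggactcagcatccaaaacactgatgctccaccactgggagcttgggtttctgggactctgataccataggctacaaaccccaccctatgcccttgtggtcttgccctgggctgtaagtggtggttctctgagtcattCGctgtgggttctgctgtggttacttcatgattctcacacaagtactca
Sh3gl3, chr7:82174596-82174795, plus strand: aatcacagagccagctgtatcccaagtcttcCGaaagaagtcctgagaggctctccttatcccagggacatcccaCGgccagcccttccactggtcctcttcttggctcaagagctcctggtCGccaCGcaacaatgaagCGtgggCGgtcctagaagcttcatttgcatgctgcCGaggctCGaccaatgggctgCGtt
Gata3, chr2:9878601-9878800, minus strand: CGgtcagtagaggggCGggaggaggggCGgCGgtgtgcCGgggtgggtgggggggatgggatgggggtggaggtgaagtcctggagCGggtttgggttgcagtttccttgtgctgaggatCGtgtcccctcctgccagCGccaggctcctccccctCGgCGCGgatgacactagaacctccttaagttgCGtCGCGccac
Klf2, chr8:72318833-72319032, plus strand: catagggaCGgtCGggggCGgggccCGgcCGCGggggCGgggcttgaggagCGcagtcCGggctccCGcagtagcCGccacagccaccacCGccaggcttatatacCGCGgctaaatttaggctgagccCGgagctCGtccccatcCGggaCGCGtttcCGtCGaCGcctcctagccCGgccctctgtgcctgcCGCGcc

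In these stretches the number of CG dinucleotides was 5 for Ifng, 2 for Il13, 0 for Il1rl1, 0 for Il4 and 1 for Gzmb, against 9 for Sh3gl3, 14 for Gata3 and 25 for Klf2. The letters TATAAA stood 30 to 25 bases before the start of Ifng and 29 to 24 bases before that of Il13. The letters GGGCGG, the core of the GC box to which Sp1 binds, occurred at 2 places in the stretch of Gata3, 2 in that of Klf2 and 1 in that of Sh3gl3.

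Promoter regions lay close around the starts. The nearest start was inside the region in 66.9% of them, 66.1% had their midpoint within 500 bp, and the median midpoint was 50 bp downstream of the start. Some 8.07% lay within 1 kb of starts on both strands. They covered 12785 of the 20807 autosomal protein-coding genes (61.4%), and 277 further genes had a start inside a region whose midpoint was over 1 kb away. Among the listed T cell genes without a promoter region by this rule, 9 had such a wide region, namely Bhlhe40, Cd2, Cd28, Foxo1, Il10, Pdcd1, S1pr1, Slamf6 and Tcf7. Gene families differed in cover. A promoter region was present for 70 of 80 genes of cytosolic ribosomal proteins, 36 of 39 proteasome subunits and 323 of 385 zinc finger genes, but for 33 of 1457 olfactory and vomeronasal receptor genes.

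Promoters made up 21.4% of the bases in all regions and held 44.8% to 49.1% of the normalized insertions of a library. The share was 49.1% and 48.6% in the LN IL-4+ libraries, 47.4%, 45.2% and 44.8% in the lung IL-4+ libraries and 47.7% and 47.7% in the lung IFNγ+ libraries. The median log2 density, of insertions per kb scaled to library size, was between 3.66 and 3.89 in promoters, between 1.93 and 2.12 in regions 1 to 100 kb from a protein-coding start, and between 1.59 and 1.74 in regions over 100 kb away. Each of the 7 libraries thus had its most open chromatin at promoters, and no library overlapped between these distance classes. A density of at least 5 insertions per kb, the level taken as accessible, was reached in all 3 populations by 69.1% of promoters, 24.4% of regions at 1 to 100 kb and 16.0% of regions beyond. By population, 79.1% of promoters were accessible in LN IL-4+, 77.0% in lung IL-4+ and 73.2% in lung IFNγ+ cells. Promoters were also longer, with a median of 777 bp against 470 bp at 1 to 100 kb, and the median SD within populations was 0.27 on the log2 scale against 0.47.

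**Figure D1:**
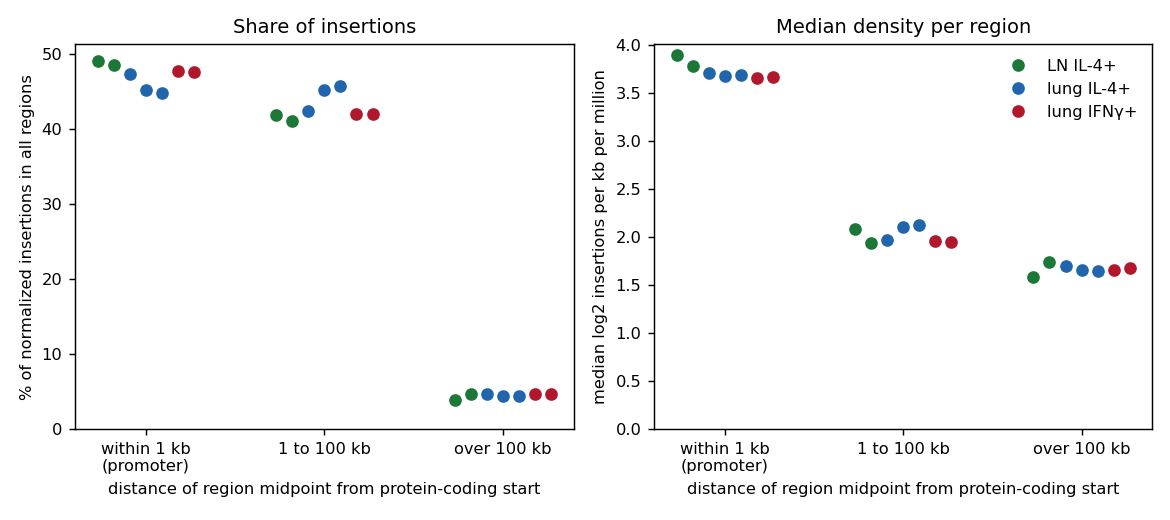
Share of normalized insertions (left, percent of all regions) and median log2 insertions per kb, scaled to library size, (right) in each of the 7 libraries, for regions by the distance of their midpoint from the nearest protein-coding start. Points are libraries, coloured by population; promoter medians sit between 3.66 and 3.89, above all points of the other classes.

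Within the 1 kb window, accessibility was lower farther from the start. The median log2 density was 4.73 for midpoints within 100 bp of a start, 3.57 at 400 to 500 bp and 2.18 at 900 to 1000 bp. Just outside the window, at 1000 to 1100 bp, it was 2.00. The 3 populations followed the same course, with medians within 100 bp of 4.85 in LN IL-4+, 4.62 in lung IL-4+ and 4.77 in lung IFNγ+ cells. The window therefore has no sharp edge, and its outermost members resemble the regions just beyond it.

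**Figure D2:**
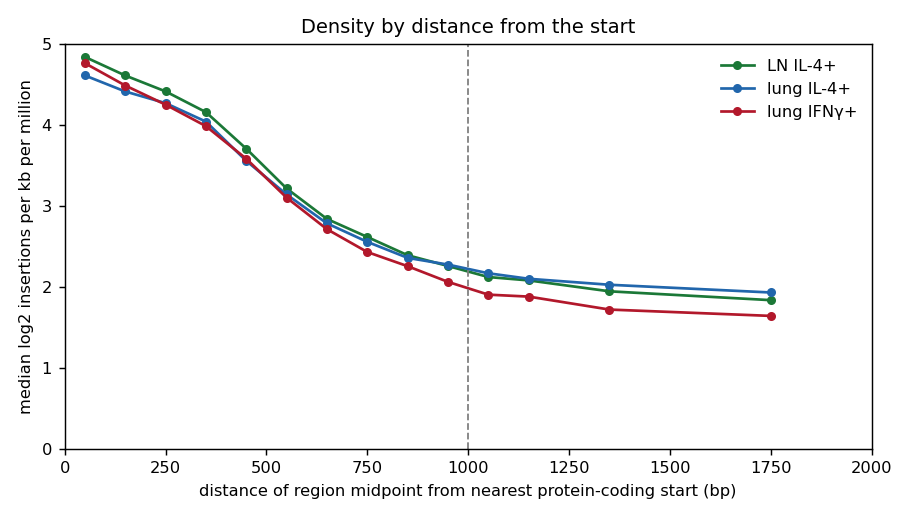
Median log2 insertions per kb, scaled to library size, (vertical axis) of regions by distance of their midpoint from the nearest protein-coding start (horizontal axis, bp, in bins), 1 line per population, with the 1 kb limit dashed. All 3 lines fall from above 4.6 next to the start to about 2 at the limit.

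The 5 promoters with the highest mean density were those of Hsd17b12, an enzyme of fatty acid elongation, Pja2, a ubiquitin ligase, Qdpr, which regenerates tetrahydrobiopterin, Sel1l, of the degradation of misfolded proteins in the endoplasmic reticulum, and Tle4, a corepressor. For Hsd17b12 (chr2:94157870-94158340) the log2 density was 8.03 and 8.58 in LN IL-4+, 8.54, 8.17 and 8.09 in lung IL-4+ and 8.62 and 8.54 in lung IFNγ+ cells. The populations overlapped, and none of the 5 was called in a comparison. An open cell cycle promoter, named after its values were seen, was that of Mcm4, part of the replicative helicase, whose region at -238.5 bp from the start had 7.02 and 7.18 in LN IL-4+, 7.10, 6.87 and 6.59 in lung IL-4+ and 7.25 and 7.24 in lung IFNγ+ cells. The promoters of olfactory and vomeronasal receptor genes that had a region were low, with a median log2 density of 1.37, against 4.34 for ribosomal proteins and 4.73 for the proteasome.

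Promoters were split by the sequence of the 500 bp on each side of the nearest start, called CpG-rich where GC content was at least 50% and the ratio of observed to expected CG dinucleotides at least 0.6, and CpG-poor otherwise. CpG-rich promoters numbered 12075 (69.0%) and CpG-poor promoters 5427 (31.0%). The median log2 density was 4.16 in the first class and 2.76 in the second, and 76.6% against 52.3% were accessible in all 3 populations. CpG-rich promoters held between 36.8% and 40.8% of the normalized insertions of a library and CpG-poor promoters between 7.90% and 8.30%.

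Short motifs, searched on both strands in windows of 300 bases, were found at different shares of promoters and of other regions. The shares in this comparison are over windows of the same length around region midpoints. The GC box letters GGGCGG were found in 41.8% of promoters and in 7.06% of regions 1 to 100 kb away. For CCGGAAG, an ETS motif, the shares were 9.20% and 2.06%. The order was the other way for the RUNX motif AACCACA, with 4.89% of promoters and 12.1% of regions at 1 to 100 kb. It was so for the AP-1 motif TGACTCA too, with 4.11% and 10.4%. The GATA motif AGATAA was in 7.95% and 16.2%. In windows from 250 bases upstream to 50 bases downstream of the start, 64.0% of all promoters held the GC box and 16.7% the ETS motif. In those windows promoters called higher in a lung population than in LN IL-4+ cells, 87 in all, held the RUNX motif in 14.9%, the AP-1 motif in 14.9%, the GATA motif in 16.1%, the TATA box in 19.5% and the GC box in 12.6%. In CpG-poor promoters as a whole the shares were 6.56%, 5.42%, 9.64%, 10.0% and 38.8% in the same order. In the 47 called higher in LN IL-4+ cells they were 2.13%, 2.13%, 6.38%, 10.6% and 42.6%. The median number of CG dinucleotides per window was 3 in the 87, 14 in the 47 and 8 in CpG-poor promoters. Motif shares were not compared at matched base composition. A match says only that the letters are in the window, and some windows hold more than 1 motif.

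The populations were then compared in pairs, to ask at which promoters accessibility differed by the tissue of IL-4+ cells or by the cytokine. IL-4+ and IFNγ+ cells came from different reporter lines, so cytokine cannot be told apart from mouse line. A region was called where limma's adjusted p over all 113820 regions was under 0.05 and the fold change at least 3. The study describes the libraries as mice of a single experiment and the labels only number them as replicates, so p-values measure the spread within that experiment. In a sorted population, fewer cells with an open promoter and a less open promoter in each cell cannot be told apart. The insertions rebuilt from the values came to between 14005923 and 91681969 per library, with a median per promoter between 185 and 1281, and these are lower bounds. The rebuilt insertions also spread differently over regions, with an interquartile range of log2 insertions per region of 1.67 to 1.75 in replicate 1 of LN IL-4+ and replicates 2 and 3 of lung IL-4+ and of 2.91 to 3.09 in the other 4.

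Between lung IL-4+ and LN IL-4+ cells, 37 promoters were higher in the lung (0.211% of promoters, against a background of 1.05% of all regions) and 15 were higher in the LN (0.0857%, against 0.695%). The median difference was -0.12 on the log2 scale over promoters and -0.03 over all regions. These counts depended on single libraries. The 37 became 76 without replicate 2 of LN IL-4+, 23 and 7 without replicates 1 and 2 of lung IL-4+, and 20 and 21 without replicates 1 and 2 of lung IFNγ+, which enter through the shared spread. The 15 became 9 without replicate 2 of LN IL-4+, 56, 3 and 7 without replicates 1, 2 and 3 of lung IL-4+, and 8 and 6 without replicates 1 and 2 of lung IFNγ+.

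Between lung IL-4+ and lung IFNγ+ cells, 2 promoters were higher in IL-4+ cells (0.0114%, against a background of 0.108%) and 11 in IFNγ+ cells (0.0628%, against 0.387%). Without replicate 1 of LN IL-4+ the counts were 5 and 19, without replicate 2 of LN IL-4+ they were 5 and 21, and without replicate 1 of lung IL-4+ they were 8 and 34. Without any 1 of the other 4 libraries limma called 0 promoters in either direction. With all libraries, 53 and 69 promoters passed an unadjusted p of 0.05 at 3-fold, higher in IL-4+ and in IFNγ+ cells.

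The IFNγ+ cells of the lung and the IL-4+ cells of the LN differ in tissue, in cytokine and in reporter line. Between them, 78 promoters were higher in IFNγ+ cells (0.446%, against a background of 2.17%) and 37 in LN IL-4+ cells (0.211%, against 0.862%). The 78 became 167 without replicate 2 of LN IL-4+, and 3 and 9 without replicates 1 and 2 of lung IFNγ+. The 37 became 11 and 139 without replicates 1 and 2 of LN IL-4+, 13 without replicate 2 of lung IL-4+, and 0 and 3 without replicates 1 and 2 of lung IFNγ+. With all libraries limma gave 144 and 121 promoters at an unadjusted p of 0.05 and 3-fold.

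In all, 137 promoters (0.783%) of 126 genes were called in at least 1 comparison, against 4662 of all regions (4.10%), 4.61% of regions at 1 to 100 kb and 6.13% of regions beyond 100 kb. The 3 comparisons share libraries, so their counts are not independent. Of the 137, 25 were accessible in all 3 populations, 42 in both lung populations and not in LN IL-4+, 22 in lung IFNγ+ alone, 13 in LN IL-4+ and lung IL-4+, 8 in LN IL-4+ and lung IFNγ+, and 23 in LN IL-4+ alone. Only 1 was accessible in lung IL-4+ cells alone, and 3 reached the level in no population.

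**Figure D3:**
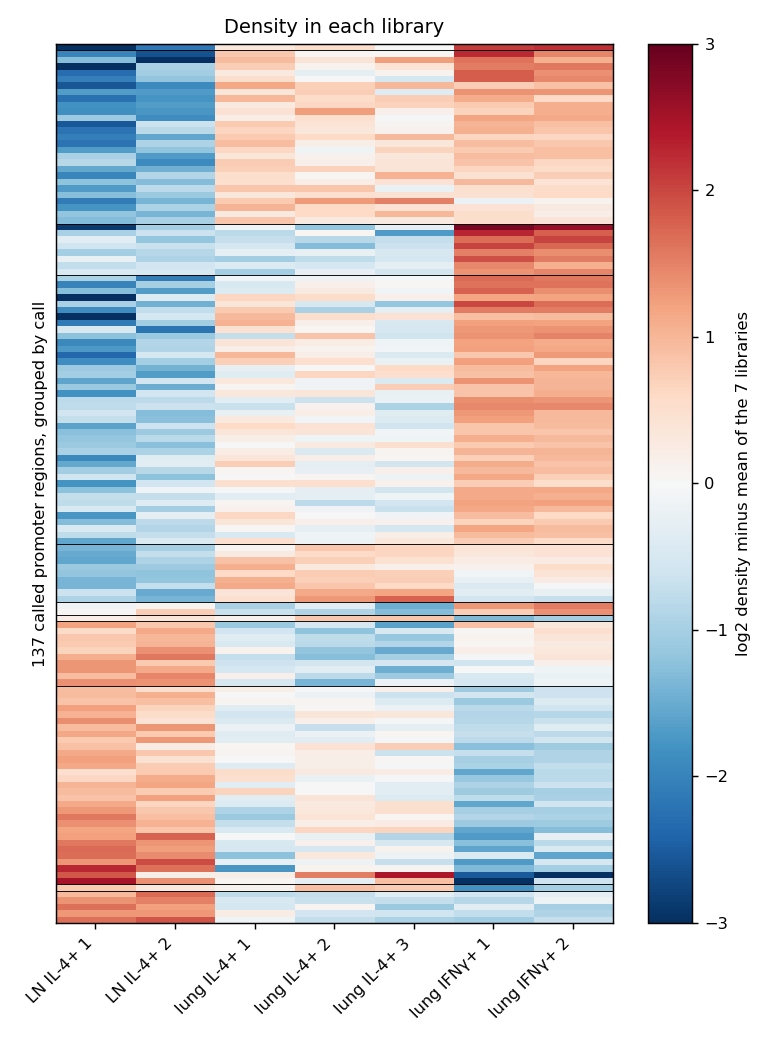
Log2 density minus the mean of the 7 libraries (colour, from -3 to 3) for the 137 called promoter regions (rows, grouped by the comparisons in which they were called) in each library (columns). The LN IL-4+ libraries are low and the lung IFNγ+ libraries high in the upper groups, and the LN IL-4+ libraries are high in the lower groups.

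The called promoters were mostly CpG-poor. Of the 12075 CpG-rich promoters 19 were called in at least 1 comparison (0.157%) and of the 5427 CpG-poor promoters 118 (2.17%). All 37 promoters higher in lung IL-4+ than LN IL-4+ cells and all 78 higher in lung IFNγ+ than LN IL-4+ cells were CpG-poor, as were the 13 called between the lung populations. Limma thus called 0 CpG-rich promoters higher in either lung population than in the LN, and at an unadjusted p of 0.05 and 3-fold there were 2 in lung IL-4+ and 6 in lung IFNγ+ cells. CpG-rich promoters were among those higher in LN IL-4+ cells, with 5 of 15 against lung IL-4+ and 16 of 37 against lung IFNγ+ cells. Without replicate 2 of LN IL-4+, 14 of 76 promoters higher in lung IL-4+ and 37 of 167 higher in lung IFNγ+ cells than in the LN were CpG-rich, and without replicate 1 of LN IL-4+ it was 1 of 27 and 2 of 64. Called CpG-rich promoters in any comparison numbered 104 without replicate 2 of LN IL-4+ (0.861%, against 4.18% of CpG-poor promoters), 42 and 6 without replicates 1 and 2 of lung IL-4+, 12 without its replicate 3, 2 without either lung IFNγ+ library and 3 after a correction for GC content (0.0248%, against 1.86%).

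**Figure D4:**
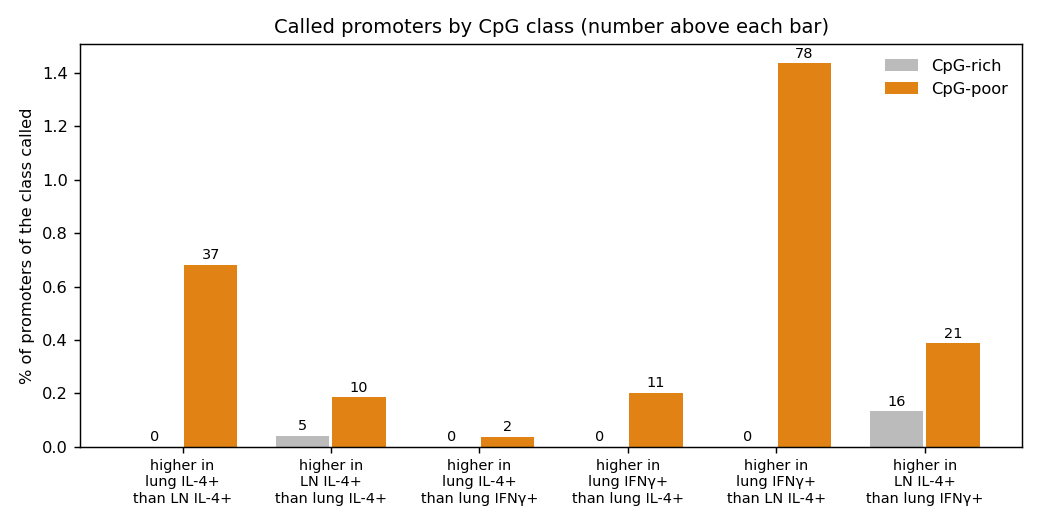
Percent of CpG-rich (grey) and CpG-poor (orange) promoters called in each comparison and direction, with the number of promoters above each bar. CpG-rich promoters appear only in the 2 groups that were higher in LN IL-4+ cells, with 5 and 16 regions.

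The classes also differ in level and in spread, which bear on the test. The median SD within populations was 0.24 for CpG-rich and 0.35 for CpG-poor promoters, and the share of CpG-rich promoters went, over 5 equal groups of promoters by mean density, from 49.4% in the lowest group to 87.4% in the highest. In the second lowest group, where calls were most frequent, 11 of 2174 CpG-rich (0.506%) and 53 of 1326 CpG-poor promoters (4.00%) were called, with median SDs of 0.35 and 0.39. In the middle group the counts were 3 of 2360 and 28 of 1140. With the class taken from the sequence of the region itself, a choice added after seeing the data, 16 of 8722 CpG-rich and 121 of 8780 CpG-poor promoters were called. None of the 1412 promoters near starts on both strands was called by limma, beside 0.783% of all and 0.157% of CpG-rich promoters. At limma's unadjusted p of 0.05 and 3-fold there were 6 results, counted over the 3 comparisons and both directions. Such promoters were 10.2% of the CpG-rich and 3.43% of the CpG-poor class, so nothing particular to them is read from the 0.

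Among promoters higher in lung IL-4+ than LN IL-4+ cells were those of the type 2 cytokines Il13 and Il5 and of Il1rl1, which encodes the IL-33 receptor ST2. At Il13 (chr11:53634509-53634934, over the start) the log2 density was 1.65 and 2.34 in LN IL-4+, 4.19, 3.87 and 3.63 in lung IL-4+ and 2.62 and 3.01 in lung IFNγ+ cells. The lung IL-4+ libraries lay above all others, and the difference from the LN was 1.90 ± 0.31 (SE, 3.73-fold, adjusted p = 0.0123). That call was lost without replicate 1 of LN IL-4+ or replicate 2 of lung IL-4+. The Il5 region lay at -911.5 bp from the start and had 0.66 and 1.30 in LN IL-4+, 3.11, 2.94 and 2.69 in lung IL-4+ and 2.45 and 2.49 in lung IFNγ+ cells. Both lung populations lay above the LN, with a difference of 1.93 ± 0.35 for lung IL-4+ (adjusted p = 0.0178), a call lost without replicate 1 of LN IL-4+, replicate 2 of lung IL-4+ or either lung IFNγ+ library.

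Il1rl1 had a pair of promoter regions and both were called. The region at -297 bp (chr1:40428883-40429664) had 0.62 and 1.34 in LN IL-4+, 3.51, 4.00 and 4.25 in lung IL-4+ and 2.55 and 2.84 in lung IFNγ+ cells. Here the 3 populations did not overlap, and the difference between lung IL-4+ and LN was 2.94 ± 0.34 (7.66-fold, adjusted p = 0.00393), kept without each of the 7 libraries in turn. The region 919.5 bp downstream had 0.70 and 0.23, 2.13, 2.92 and 3.38, and 1.03 and 0.93 in the same order and differed by 2.34 between lung IL-4+ and LN IL-4+ cells, a call kept without replicate 1 of lung IL-4+ and lost without any other library.

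The Ifng promoter was the only one called in all 3 comparisons. Its region (chr10:118440693-118441133) had 0.53 and 1.34 in LN IL-4+, 3.81, 4.02 and 3.50 in lung IL-4+ and 5.60 and 5.69 in lung IFNγ+ cells. The populations formed 3 separate levels, with lung IL-4+ cells in between. Lung IL-4+ cells exceeded the LN by 2.84 ± 0.29 (7.15-fold, adjusted p = 0.00274) and lung IFNγ+ cells exceeded it by 4.71 ± 0.31 (26.1-fold, adjusted p = 0.000572), and both calls were kept without each library in turn. Lung IL-4+ cells were lower than lung IFNγ+ cells by 1.87 ± 0.29 (3.65-fold, adjusted p = 0.0247), a call lost without replicate 2 or 3 of lung IL-4+ or either IFNγ+ library. A further Ifng region, 867.5 bp downstream of the start, was called in no comparison, with 1.81 and 1.03, 1.12, 2.26 and 1.01, and 3.46 and 3.43.

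Further promoters higher in lung IL-4+ than LN IL-4+ cells belonged to effector, receptor and enzyme genes. Gzmb, which encodes the protease granzyme B, had 1.44 and 1.58 in LN IL-4+, 3.53, 3.86 and 3.94 in lung IL-4+ and 4.04 and 4.34 in lung IFNγ+ cells, and the difference of 2.27 ± 0.25 (adjusted p = 0.00334) held without each library in turn. Gcnt1, a glycosyltransferase that builds branched O-glycans of selectin ligands, differed by 3.19 ± 0.30 (9.12-fold, adjusted p = 0.00218), with 0.31 and 0.95 in LN IL-4+ and 4.03, 3.57 and 3.85 in lung IL-4+ cells. The chemokine receptor genes Ccr1 and Ccr2 were higher by 2.03 ± 0.34 and 1.91 ± 0.30, both calls lost without replicate 2 of lung IL-4+. The inflammasome sensor Nlrp3 was higher by 2.77 ± 0.47, a call lost without replicate 2 of lung IL-4+ or replicate 1 of lung IFNγ+. Chosen after their values were seen, Havcr2 (TIM-3), Furin, a proprotein convertase, and Il2ra (CD25) were higher by 2.08, 1.97 and 1.61. The lung libraries lay above both LN libraries at each of these genes.

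Higher in LN IL-4+ than lung IL-4+ cells were, among others, Susd4, a regulator of complement, Slc43a1, an amino acid transporter, Hsdl1 and Tcf12, which encodes the E protein HEB. Susd4 (chr1:182763766-182764505) had 5.52 and 5.74 in LN IL-4+, 3.72, 3.14 and 2.90 in lung IL-4+ and 2.82 and 3.17 in lung IFNγ+ cells. The LN libraries stood apart from all lung libraries, and the difference of -2.38 ± 0.27 (5.19-fold, adjusted p = 0.00373) was kept without each library in turn, as were those of Slc43a1, -2.34 ± 0.32, and Hsdl1, -2.05 ± 0.26. At Tcf12 the difference was -2.05 ± 0.41 (adjusted p = 0.0278), a call lost without either LN IL-4+ library, replicate 2 of lung IL-4+ or either lung IFNγ+ library. The CpG-rich promoter of Sh3gl3, an endophilin, had 3.81 and 3.83 in LN IL-4+ and 2.74, 1.94 and 1.93 in lung IL-4+ cells, a difference of -1.62 ± 0.34 (adjusted p = 0.0329). It was named after its values were seen, and fits without single libraries are not given for it. CpG-rich promoters called in this direction went from 5 to 1 after a correction for GC content.

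Between the lung populations, Il4 and Brd1, a scaffold of histone acetyltransferase complexes, were higher in IL-4+ cells. The called Il4 region (chr11:53616846-53618000) lay at -84.5 bp from an alternative annotated start inside the gene, and had 4.14 and 3.65 in LN IL-4+, 3.45, 4.26 and 4.11 in lung IL-4+ and 1.55 and 2.33 in lung IFNγ+ cells. Both IL-4+ populations lay above IFNγ+ cells and overlapped each other, and the lung populations differed by 2.00 ± 0.34 (4.00-fold, adjusted p = 0.0351). At the main start (chr11:53618058-53619204) the values were 3.72 and 3.37, 2.08, 3.18 and 3.20, and 0.98 and 1.28. There the difference between lung IL-4+ and IFNγ+ cells was 1.70 ± 0.39 and did not pass (adjusted p = 0.0915), while IFNγ+ cells were below LN IL-4+ cells by 2.42 ± 0.43 (adjusted p = 0.0131). For Brd1 the difference between the lung populations was 1.78 ± 0.33 (adjusted p = 0.0442). As with all 13 calls between lung populations, both were lost without replicate 2 or 3 of lung IL-4+ or either lung IFNγ+ library.

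The 11 promoters higher in lung IFNγ+ than lung IL-4+ cells included cytotoxic and natural killer type genes. Samd3 had -0.45 and 1.40 in LN IL-4+, 2.28, 1.27 and 2.18 in lung IL-4+ and 5.23 and 5.04 in lung IFNγ+ cells, and the lung populations differed by -3.23 ± 0.52 (9.38-fold, adjusted p = 0.0295). Klrc1, which encodes the receptor NKG2A, had 1.74 and 1.66, 1.81, 1.04 and 1.69, and 4.35 and 4.07, a difference of -2.70 ± 0.35 (adjusted p = 0.0158). At both genes the IFNγ+ libraries stood alone. The chemokine gene Ccl4 differed by -2.53 ± 0.40, Gzmk (granzyme K) by -2.60 ± 0.48 and Klra5, of the Ly49 family, by -2.86 ± 0.50. Il12rb2, a chain of the IL-12 receptor, had regions at each of its annotated starts, which differed by -2.35 and -2.00. Klra and Klrc genes are families of similar sequence, and the study removed reads of low mapping quality. Whether reads were lost at members or shared among them was not tested.

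Lung IFNγ+ cells exceeded LN IL-4+ cells most at Ifng and at Samd3, by 4.66 ± 0.57 (25.3-fold). Nkg7, a protein of cytotoxic granules, had 1.67 and 0.53 in LN IL-4+, 2.53, 2.51 and 2.59 in lung IL-4+ and 4.31 and 4.20 in lung IFNγ+ cells, with IFNγ+ cells above the LN by 3.16 ± 0.39 (adjusted p = 0.0032). Lung IL-4+ cells again lay between the other populations. The chemokine gene Xcl1, the receptor chain gene Il18rap at its start, Klrd1 (CD94) and Klrk1 (NKG2D) were higher by 3.06 ± 0.52, 3.07 ± 0.70, 3.13 ± 0.51 and 3.72 ± 0.62. The LN libraries lay far apart at Il18rap (0.04 and 2.99), Klrk1 (-0.70 and 1.68) and Samd3, and without replicate 1 or 2 of LN IL-4+ the difference was 1.59 or 4.54 at Il18rap, 2.52 or 4.91 at Klrk1 and 3.74 or 5.59 at Samd3. Dhrs9, a retinol dehydrogenase, had 3.07 and 3.94, 5.65, 5.11 and 4.59, and 6.94 and 6.55, and its difference of 3.24 ± 0.35 (9.45-fold, adjusted p = 0.0021) was kept without each library in turn. Of those named here, the calls at Samd3, Nkg7, Xcl1, Klrd1 and Klrk1 were lost without either lung IFNγ+ library, and that at Il18rap also without replicate 2 or 3 of lung IL-4+.

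Promoters higher in LN IL-4+ than lung IFNγ+ cells included Cxcr5, the receptor that takes cells into B cell follicles, and Ascl2, a transcription factor of follicular helper cells. Cxcr5 lay in a region of 4839 bp (chr9:44523976-44528814) with 4.29 and 3.60 in LN IL-4+, 1.59, 3.10 and 2.76 in lung IL-4+ and 1.81 and 1.74 in lung IFNγ+ cells. The LN libraries were above all lung libraries, and IFNγ+ cells were lower by 2.16 ± 0.48 (adjusted p = 0.0335), a call kept without replicate 2 of LN IL-4+ or replicate 1 of lung IL-4+ and lost without any other library. Lung IL-4+ cells were lower by 1.46 ± 0.44, which did not pass (adjusted p = 0.116). For Ascl2, at the region 801.5 bp downstream of the start, IFNγ+ cells were lower by 1.65 (adjusted p = 0.033), a call lost without replicate 1 of LN IL-4+, replicate 2 of lung IL-4+ or either lung IFNγ+ library. Susd4 was low here too, with its regions lower by 2.63 ± 0.30 and 4.19 ± 1.00. The second of these had no insertion in replicate 1 of lung IFNγ+, was lower by 2.54 without that library and by 5.84 without replicate 2 of lung IFNγ+, and its call was lost without replicate 1 of lung IFNγ+, replicate 1 of LN IL-4+ or any 1 lung IL-4+ library.

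**Figure D5:**
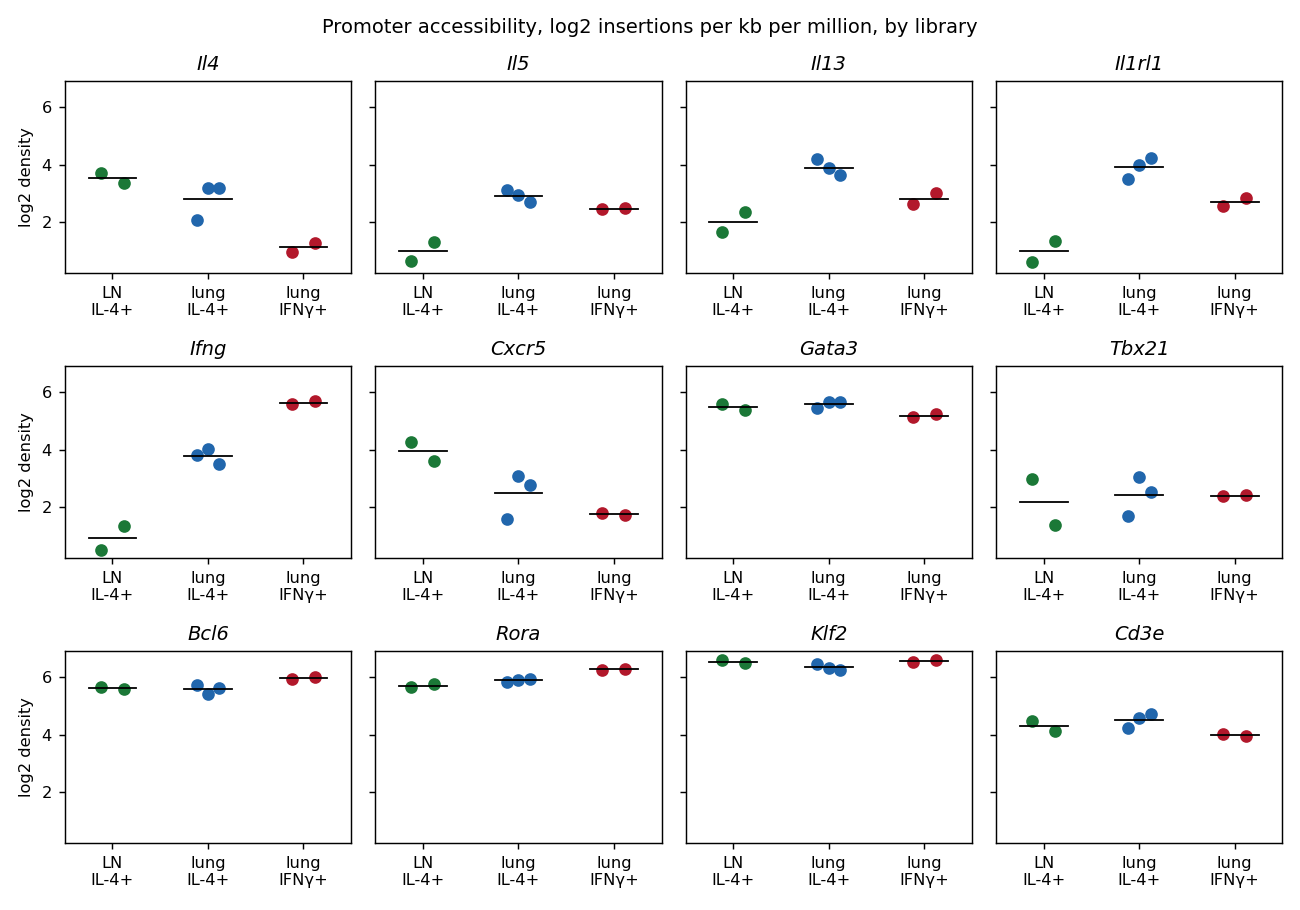
Log2 insertions per kb, scaled to library size, at the promoter region nearest the start of 12 genes, with 1 point per library and a line at the mean of each population. Ifng forms 3 levels, Il13, Il5 and Il1rl1 are lowest in LN IL-4+ cells, Il4 is lowest in lung IFNγ+ cells, Cxcr5 is highest in LN IL-4+ cells, and Gata3, Bcl6, Rora, Klf2 and Cd3e stay within 1 unit across all 7 libraries.

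Promoters of genes that encode lineage regulators, Gata3, Bcl6, Tbx21 and Rora, were called in no comparison. Gata3, the transcription factor of Th2 cells, had 5.59 and 5.40 in LN IL-4+, 5.47, 5.65 and 5.68 in lung IL-4+ and 5.13 and 5.23 in lung IFNγ+ cells. Lung IL-4+ and LN IL-4+ cells overlapped and differed by 0.10, with a 95% interval from -0.25 to 0.45, while both IFNγ+ libraries were below the IL-4+ libraries, by 0.42 from lung IL-4+ cells (0.07 to 0.77, adjusted p = 0.275). Bcl6, the regulator of follicular helper cells, had 5.69 and 5.60, 5.74, 5.44 and 5.63, and 5.95 and 6.02, with an interval from -0.38 to 0.30 between lung IL-4+ and LN IL-4+ cells. Tbx21, of Th1 cells, was less open, at 2.99 and 1.37, 1.70, 3.04 and 2.52, and 2.38 and 2.43. Its replicates spread widely and its interval between lung IFNγ+ cells and the LN, -1.03 to 1.48, includes 2-fold changes either way. Rora differed by 0.57 between lung IFNγ+ cells and the LN, with an interval from 0.23 to 0.90. It passed neither on limma's adjusted p (0.0659) nor on size, as the whole interval lay under 3-fold.

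Other regions nearest to these genes were read beside the 4.70% of all regions other than promoters that were called in at least 1 comparison. Of 98 regions nearest to Gata3 outside its promoter, 11 were called in at least 1 comparison, as were 12 of 78 for Rora, 3 of 13 for Tbx21 and 2 of 22 for Bcl6. For Il1rl1, whose promoter regions were both called, 17 of 30 other regions were called, all 17 of them higher in lung IL-4+ than in LN IL-4+ cells. Over all genes, 610 with a promoter region had another region called higher in lung IL-4+ than LN IL-4+ cells, and 17 of these (2.79%) had their promoter called in that direction. For lung IFNγ+ against LN IL-4+ cells it was 41 of 1134 genes (3.62%), and for regions higher in the LN it was 3 of 512 (0.586%) against lung IL-4+ and 8 of 593 (1.35%) against lung IFNγ+ cells. Read from the promoters, 17 of 35 genes with a promoter higher in lung IL-4+ cells (48.6%) had another region called the same way, and 41 of 72 (56.9%) of those higher in lung IFNγ+ than LN IL-4+ cells. For promoters higher in the LN it was 3 of 15 genes and 8 of 34 (23.5%). A gene can have several other regions, so shares of genes and shares of regions are not alike. Of the other regions nearest to those genes, 51 of 418 (12.2%) and 96 of 858 (11.2%) were called the same way. These shares pool the regions of all such genes, and the first includes regions of Il1rl1, given above. For genes with promoters higher in the LN it was 5 of 117 (4.27%) and 15 of 221 regions (6.79%). Of all regions at 1 to 100 kb and beyond, 1.24% and 2.52% were called higher in lung IL-4+ and lung IFNγ+ cells than in the LN. The shares called lower were 0.824% and 1.02%.

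Of the 21 regions of Th2 genes, 5 were higher in lung IL-4+ than LN IL-4+ cells and 0 lower, beside 0.211% and 0.0857% of all promoters, with a median difference of 0.39 against -0.12 over all promoters. The 5 were those of Il13, Il5, Il1rl1 and Plac8. Higher in lung IFNγ+ than LN IL-4+ cells were 2 of the 21, Il1rl1 at -297 bp by 1.71 and Plac8 by 2.00. Both calls were lost without replicate 1 of LN IL-4+, replicate 2 of lung IL-4+ or either lung IFNγ+ library. Another 2, of Il4, were lower, beside 0.446% and 0.211% of all promoters called higher and lower. Plac8 differed by 1.95 between lung IL-4+ and LN IL-4+ cells, a call lost without replicate 1 of LN IL-4+ or any 1 lung library. Of the 32 regions of Th1 genes, 12 were higher in lung IFNγ+ than LN IL-4+ cells and 0 lower, beside 0.446% and 0.211% of all promoters, with a median difference of 1.76 against -0.09, and 5 were higher in lung IFNγ+ than lung IL-4+ cells, beside 0.0628%. Of the Th1 genes, Ifng, Gzmb and Il18rap were also higher in lung IL-4+ than LN IL-4+ cells. For Il18rap this was the region 982.5 bp downstream of a start, higher by 1.82. That call was kept without replicate 2 of LN IL-4+ and lost without any other library. Of the 21 regions of follicular helper genes, 2 were lower in lung IFNγ+ than LN IL-4+ cells, beside 0.211% of all promoters, with a median of -0.58. Between lung IL-4+ and LN IL-4+ cells limma called 0 of these 21, and 5 had an unadjusted p under 0.05, all lower in the lung, with a median difference of -0.26. Pou2af1, a coactivator of follicular helper and B cells, had 5.48 and 5.84 in LN IL-4+ and 5.04, 4.51 and 4.23 in lung IL-4+ cells, a difference of -1.06 ± 0.24 that passed on adjusted p (0.0411) and not on size, and was named after its values were seen. Pdcd1, Sh2d1a, Cd40lg, Slamf6 and Tcf7 had no promoter region by the rule, Sh2d1a and Cd40lg because they are on the X chromosome.

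Of 33 regions of tissue residence genes, those of Ccr1 and Ccr2 were called, higher in both lung populations than in the LN, beside 0.211% of all promoters for lung IL-4+ and 0.446% for lung IFNγ+ cells, with a median difference of 0.37 for lung IL-4+ against LN IL-4+ cells. The region at -510.5 bp from a start of Tnfrsf9, which encodes 4-1BB, had 4.12 and 4.04 in LN IL-4+, 5.57, 5.76 and 5.48 in lung IL-4+ and 5.51 and 5.62 in lung IFNγ+ cells, so both lung populations lay above the LN. Its differences from the LN, 1.52 ± 0.16 and 1.48 ± 0.18 (adjusted p = 0.00295 and 0.00293), were just under 3-fold and therefore not called, and the gene was named after its values were seen. Of 21 regions of homing and egress genes, 1 was called, at an alternative start of Foxp1, which was higher in lung IFNγ+ than LN IL-4+ cells by 1.83 ± 0.35 (adjusted p = 0.0179) and lost that call without replicate 1 of LN IL-4+ or either lung IFNγ+ library. Klf2, the activator of egress receptors, had one of the most open promoters of the lists, at 6.61 and 6.50, 6.49, 6.34 and 6.25, and 6.52 and 6.61. The promoter of Ccr7 had 4.40 and 4.28, 3.84, 4.24 and 4.64, and 3.52 and 3.64, and the IFNγ+ libraries were below the IL-4+ ones without passing the test (adjusted p = 0.267 against lung IL-4+ and 0.158 against LN IL-4+ cells). Of the 27 regions of cell cycle genes and the 17 of interferon-stimulated genes limma called 0, and 7 and 6 region-by-comparison results had an unadjusted p under 0.05. For ribosomal proteins and the proteasome it was 0 of 107 and 0 of 49 regions, with 14 and 6 results at an unadjusted p under 0.05. Of all promoters 0.783% were called in any comparison, and nothing particular to these genes is read from counts of 0 beside that share.

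Markers of the sorted cells and of other cells were read in the same libraries. Promoter regions were present for 8 of 10 CD4 T cell genes, and Cd3e had 4.47 and 4.15 in LN IL-4+, 4.25, 4.59 and 4.71 in lung IL-4+ and 4.04 and 3.96 in lung IFNγ+ cells. None of these 10 regions was called by limma, and 3 region-by-comparison results had an unadjusted p under 0.05. Of the genes that define other cells, Cd79a, Ms4a1, Lyz2, Csf1r, Adgre1, Cd8a, Ncr1, Sftpc and Pecam1 had no promoter region. Of the 7 B cell genes only Ebf1 had one, of the 8 myeloid genes 4 did, of the 6 CD8 T or NK cell genes 3 did, and of the 8 epithelial or endothelial genes 3 did. For other cells, normalized insertions (density times region length) were summed over the regions of a set and given as log2. Ranges are over the libraries of the LN, of lung IL-4+ cells and of IFNγ+ cells. They were 4.96 to 5.81, 5.21 to 6.04 and 5.36 to 5.47 for the myeloid genes. For the CD8 T or NK cell genes they were 3.44 to 3.59, 2.86 to 3.85 and 3.98 to 4.00. For the B cell gene the ranges were 3.17 to 3.72, 3.21 to 3.71 and 3.62 to 3.85, and for the epithelial or endothelial genes 4.31 to 4.63, 4.25 to 4.50 and 4.56 to 4.64. Limma called 0 of the 2 B cell, 5 myeloid and 4 epithelial or endothelial regions, with 0, 2 and 1 results at an unadjusted p under 0.05. The sum of the CD8 T or NK cell set was highest in IFNγ+ cells. Of its 3 regions 1 was called, that of Klrd1, which is among the killer cell receptor promoters described above. For IFNγ+ cells against the LN the median difference of the 3 regions was -0.003, so a rise was not common to the set. The part of CD8 T or NK cells in the killer cell receptor promoters was not tested.

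Genes with several promoter regions were rarely called at all of them. Of the 12060 genes nearest to a promoter region, 4334 had 2 or more, up to 8 for Add3, and 65 of those had a call. In 6 of the 65 every region was called, among them Il1rl1, Il12rb2, Gcnt2 and Ntrk3. Gcnt1 had 4 regions of which 2 were called. The region 336 bp downstream of its start was called higher in both lung populations than in LN IL-4+ cells. It had 3.60 and 3.74 in lung IFNγ+ cells, above the LN by 3.04 (limma's adjusted p = 0.00205). The region at -148 bp had 2.32 and 2.66 in LN IL-4+, 3.65, 3.35 and 3.36 in lung IL-4+ and 4.56 and 4.45 in lung IFNγ+ cells. It was called for IFNγ+ cells against the LN.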

How the data were processed

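ATAC-seq libraries of sorted CD4+ T cells were grouped by tissue and reporter as labelled. The deposited values were log2 insertions per kb, scaled to library size, which the authors made by mapping reads to GRCm38/mm10 with Bowtie2 2.3.2, calling regions with MACS2 2.1.1, merging them over replicates and applying voom (limma 3.38.3, R 3.5.1), per the submitters' notes and the study's methods. The values also appear quantile-normalized, which sets libraries to a like distribution, so a shift shared by all regions would not be seen. Insertions were rebuilt from the steps between low values and give depth as lower bounds only.

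Regions were assigned to GENCODE M21 starts. Group means were fitted to all regions of the 7 libraries with limma 3.58.1 (R 4.3.3, lmFit and eBayes with trend), and p-values were Benjamini-Hochberg adjusted over all 113820 regions. The fit was tested on simulated data. Intervals are 95% and two-sided.

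Named promoters were, per comparison and direction, the 10 largest called changes with no overlap between libraries, every called promoter of a listed gene, the nearest region of 21 fixed genes and the 5 most open promoters. The text gives values for some of them. The members and lists were chosen with earlier results of these data known. Other processing was tried by fold limit, pseudocount, filter, library scaling, GC correction, replicate block, spread class, window and leaving out each library. RefSeq promoter sequences matched 9398 of 12055 nearest gene symbols.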

Additional observations from a re-analysis of the deposited data

How the results depend on the processing

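None of the 79 calls named by rule changed direction in the alternative runs, while the number of calls moved with most of these runs. Sh3gl3, Havcr2, Furin and Il2ra, named after their values were seen, were not among the 79. In the order higher in lung IL-4+ and in LN IL-4+ cells, then higher in lung IL-4+ and in lung IFNγ+ cells, then higher in lung IFNγ+ and in LN IL-4+ cells, the 37, 15, 2, 11, 78 and 37 promoters called became 67, 56, 6, 15, 109 and 80 at a fold limit of 2, and 21, 12, 1, 13, 69 and 21 on log2(density + 1). They were 28, 9, 1, 11, 74 and 16 after a GC correction, 30, 13, 1, 13, 79 and 26 with library medians set equal, and 54, 34, 4, 24, 98 and 65 with the spread class of the libraries (narrow or wide by rebuilt insertions) as a covariate. Leaving out each library in turn gave 7 to 76, 3 to 56, 0 to 8, 0 to 34, 3 to 167 and 0 to 139. The causes of these moves were not tested, beyond the fewer samples in each fit that leaves a library out.

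With the replicate number as a block the counts were 0, 0, 0, 0, 15 and 1, and with the block and the GC correction 0, 0, 0, 0, 4 and 0. At an unadjusted p of 0.05 and 3-fold limma's blocked fit gave 65, 47, 18, 42, 140 and 106, and 59, 27, 10, 42, 151 and 59 with the GC correction. Whether the numbers pair the libraries could not be decided, as deviations from the mean of a population with 2 libraries are equal and opposite. Deviations of same-numbered libraries from their group means correlated at -0.54 and -0.30 between LN IL-4+ and lung IL-4+, at 0.057 between LN IL-4+ and lung IFNγ+ and at -0.015 and -0.014 between the lung populations. Among differently numbered libraries, replicate 1 of LN IL-4+ gave 0.30 and 0.35 with replicates 2 and 3 of lung IL-4+. Replicate 2 of LN IL-4+ gave 0.54 and -0.35 with replicates 1 and 3 of lung IL-4+. Of these, the positive values joined libraries of the same spread class. Pairing apart from that class was not tested. Of 79 named calls 6 were kept with the block, 2 with the block and the GC correction, 66 with the GC correction alone, 64 on log2(density + 1), 70 with medians set equal and 73 with the spread class.

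CpG-rich promoters called in any comparison went from 19 to 3 after the GC correction, 7 on log2(density + 1), 12 with medians set equal, 37 with the spread class, 1 with the block, and between 2 and 104 when a library was left out. With midpoints within 500 bp there were 11571 promoters, which held 39.4%, 36.5% and 39.0% of normalized insertions in LN cells, lung IL-4+ cells and IFNγ+ cells, and of which 87.3%, 84.8% and 82.2% were accessible. After the GC correction the promoter shares were 32.7%, 31.6% and 34.1%. At a level of 10 insertions per kb, 59.1%, 56.5% and 55.8% of promoters were accessible. With 2 or 3 libraries a population and spread of this size, promoters that were not called may still differ.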
